A study of Mus musculus with 12 samples.

Results

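The most deeply covered CpG sites of mouse spermatozoa read by reduced representation bisulfite sequencing (RRBS) were taken as the autosomal sites with a mean coverage of at least 150 reads over testicular replicates 1, 2 and 3. These deep sites numbered 1096 of the 13917 autosomal sites (7.88%), in a table of 14149 sites in all. Coverage is the number of reads over a site, and methylation is the percentage of those reads in which the cytosine was methylated. Spermatozoa of testicular origin were set beside those of the epididymal caput, corpus and cauda, with 3 samples per origin, sorted from pools of mice. Per the paper, cauda spermatozoa were flushed out by perfusion, while those of testis, caput and corpus came from cut and dissociated tissue. Collection and origin thus cannot be told apart where cauda is compared. The labels do not say whether samples of different origin with the same replicate number share mice. Every mouse, testicular donors included, was an untreated animal of the RBGS002Osb line on the B6D2F1 background, with the transgenes Tg(CAG/su9-DsRed2, Acr3-EGFP), between 10 and 12 weeks of age. In this line a CAG promoter drives a red protein sent to mitochondria and the acrosin promoter drives a green protein in the acrosome, and cells were sorted from the gate with the strongest signal of both. The sorted cells are those that carry both transgenes at high signal, and differences between single animals within a pool were not measured.

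Methylation of cytosines in the CpG context is laid down in male germ cells before meiosis and is, in most genomic regions, either nearly complete or nearly absent in spermatozoa. Promoters rich in CpG are usually unmethylated, while introns, intergenic DNA and most repeats are usually methylated. Spermatozoa leave the testis immotile and become motile and able to fertilize while they pass through caput, corpus and cauda. RRBS reads the ends of short fragments made with an enzyme that recognizes CCGG, so that the same positions are read many times. In a pool of spermatozoa, a middle value is a share of methylated reads, and which cells or other DNA carried them cannot be told.

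Imprinted loci served as markers of spermatozoa, since paternally methylated loci are methylated and maternally methylated promoters unmethylated in these cells, while somatic cells lie near the middle at both. Of 19 sites of the table near imprinted genes, 1 was deep, at chr7:142575817 in H19, a paternally methylated locus. Its methylation was 97.8%, 96.7% and 92.8% in testicular replicates 1, 2 and 3, 87.1%, 93.2% and 93.7% in caput, 97.1%, 94.1% and 89.3% in corpus, with 98.9%, 98.4% and 97.1% in cauda replicates 1, 2 and 3. All 12 samples were thus high at H19, and caput replicate 1 was the lowest. No deep site lay near a maternally methylated promoter, so those markers could not be read at this depth. The table held 0 sites near Acr, the gene whose promoter drives the green protein, and 0 of its 6 sites near germline genes were deep.

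Caput replicate 1 and corpus replicate 1 stood apart from the other replicates of their segments at the deep sites. The methylation of a deep site in caput replicate 1 lay on average 10.5 points from the mean of caput replicates 2 and 3, and 343 sites lay more than 10 points away. The same distance was 5.92 points for caput replicate 2 and 7.18 points for caput replicate 3, with 221 and 274 sites more than 10 points away. Across the 1096 deep sites, which share libraries and include neighbours on the same fragments, Pearson's r was 0.915 and 0.901 between caput replicate 1 and caput replicates 2 and 3, and 0.981 between the latter. Corpus replicate 1 had r values of 0.955 and 0.959 with corpus replicates 2 and 3, which had 0.980 between them. The lowest r was 0.989 among testicular pairs and 0.990 among cauda pairs. The library with the fewest reads was also corpus replicate 1. The authors' deposited lists for caput and corpus are named as made without outliers, and which samples were meant is not stated. Both libraries entered the tests, and counts and the larger differences are also given without them.

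The reads at deep sites numbered 285085, 247252 and 221790 in testicular replicates 1, 2 and 3, which was 30.6%, 24.9% and 25.6% of the autosomal reads of the table. Their share was 28.3%, 28.4% and 28.7% in caput, 26.3%, 26.8% and 26.0% in corpus, with 25.6%, 25.6% and 25.3% in cauda replicates 1, 2 and 3. Testicular coverage chose the sites, so the testicular shares are no finding. The median coverage of a deep site was 229, 207 and 183 reads in testicular, 144.5, 201 and 170.0 in caput, 84, 183 and 130.0 in corpus, with 167.5, 142.5 and 160.0 in cauda replicates 1, 2 and 3. Other autosomal sites had a median mean testicular coverage of 44 reads, against 205 at deep sites. Coverage below 50 reads occurred at 293 deep sites in corpus replicate 1, 35 in corpus replicate 3 and 13, 3 and 11 in caput replicates 1, 2 and 3. In every testicular and cauda sample and in corpus replicate 2, at most 4 deep sites were below 50 reads.

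The 1096 deep sites fell into 671 clusters when sites within 100 bp of the next were joined, so many deep sites share fragments and reads. Single sites made 421 of the clusters, 162 held 2 sites and 88 held 3 or more, with 14 sites in the largest. Chromosome 5 carried the most deep sites (97) and chromosome 18 the fewest (33). The median fragment between CCGG sequences was 173 bp around deep sites and 148 bp around other autosomal sites. The median GC content of the 100 bp around a site was 49% and 51%, with a median of 4 CpGs in both sets, and 95.9% of each set lay within 50 bp of a CCGG. Repeat-masked sequence held 22.7% of deep and 15.3% of other sites, and the 31 bases around a site occurred more than once in the genome for 9.85% of deep and 7.64% of other sites. These are descriptions without a test.

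Promoters, defined as the 2 kb on either side of a transcription start, held 45.5% of deep and 43.6% of other autosomal sites. Introns held 23.0% of deep sites, intergenic DNA 26.4% and exons 5.11%, against 21.9%, 28.1% and 6.40% of the other sites. By testicular methylation over the pooled reads of the 3 samples, 397 deep sites were below 10%, 435 were above 90% and 264 lay between. The sites below 10% made 36.2% of deep and 42.5% of other sites, and those above 90% made 39.7% and 39.3%. Promoters held 79.8% of the deep sites below 10% and 14.7% of those above 90%. Deep coverage therefore took in unmethylated promoters and methylated gene bodies alike.

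At the limit of 150 reads, the sites just inside were chr1:177758384, chr19:57404539 and chr5:134184048, each with a mean testicular coverage of exactly 150 reads. Testicular methylation was 93.1%, 96.5% and 97.3% at the intergenic site on chromosome 1, with 100%, 87.8% and 96.9% in caput, 100%, 100% and 100% in corpus, with 94.2%, 99.2% and 93.8% in cauda. At the intergenic site on chromosome 19 it was 0%, 0.535% and 0%, with 23.96%, 9.33% and 9.28% in caput, 15.1%, 23.5% and 10.3% in corpus, with 1.19%, 2.29% and 0% in cauda. All caput and corpus samples were thus above all testicular and cauda samples at the chromosome 19 site. At chr5:134184048, 21 bp from the start of the transcription factor gene Gtf2ird2, testicular methylation was 0%, 2.08% and 0%, with 0%, 0% and 0% in caput, 0%, 0% and 0% in corpus, with 0%, 0% and 2.41% in cauda. A count of 0 at 48 reads in corpus replicate 1 sets an upper limit of 6.25%, the share that 3 reads would make.

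Just outside the limit lay chr1:119471763 in Ralb, chr16:48310039 in the promoter of Dppa2, a gene of early embryos, and chr7:38783163 in Gm21122, with means of 149.3, 149.7 and 149.7 reads. The Dppa2 site had 0%, 3.60% and 3.88% in testicular, 78.4%, 25% and 36.2% in caput, 25%, 16.2% and 6.06% in corpus, with 0%, 0% and 1.03% in cauda replicates 1, 2 and 3. The Ralb site had 100%, 99.2% and 94.4% in testicular, 73.4%, 90.1% and 84.8% in caput, 100%, 99.2% and 98.7% in corpus, with 96.97%, 96.1% and 91.7% in cauda samples. Corpus replicate 1 read the Ralb site 14 times, against 121 and 75 times in corpus replicates 2 and 3. The Gm21122 site had 93.7%, 88.97% and 85.9% in testicular and 84.9%, 87.8% and 91.9% in caput samples, while corpus had 95.1%, 87.5% and 76.1% and cauda 91.3%, 87.6% and 98.02%. Sites on either side of the limit thus included stable and strongly changed positions.

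The deepest cluster lay in ribosomal DNA. Ribosomal RNA genes occur in many tandem copies, of which a share is methylated in most tissues, and a reference genome holds few of them. A segment at chr17:39843503-39848799, which covers the genes Gm26917, Gm42418 and AY036118 and the rRNA gene CT010467.1, held 40 deep sites in 11 clusters. Of 78 sites of the table within 2 kb of an rRNA gene, 37 were deep, of which 36 lay in this segment. The deepest site of all was chr17:39845715, with 481, 473 and 521 reads in testicular replicates 1, 2 and 3 and a mean of 492. Its methylation was 5.20%, 9.09% and 4.99% in testicular, 9.09%, 7.01% and 3.73% in caput, 4.10%, 9.22% and 2.93% in corpus, with 10.8%, 2.64% and 3.75% in cauda samples. The groups overlapped fully. The sequence around this site is shown because it carries 6 measured CpGs within few bases, all read together. It is the + strand of GRCm38, from 5′ to 3′, with capitals on the CpGs that the count table measures.
chr17:39845655-39845774: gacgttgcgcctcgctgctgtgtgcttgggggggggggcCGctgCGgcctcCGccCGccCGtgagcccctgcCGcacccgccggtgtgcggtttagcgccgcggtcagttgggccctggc

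Over the 40 deep sites of the ribosomal segment, mean methylation was 17.05%, 26.5% and 19.5% in testicular replicates 1, 2 and 3, 23.5%, 26.1% and 17.01% in caput, 14.4%, 24.4% and 15.1% in corpus, with 22.9%, 27.7% and 15.5% in cauda. Replicates of a group differed by more than the groups did, and replicate 2 was the highest in all groups. The part that copy number plays in these values was not tested. At chr17:39843958, the other ribosomal site among the deepest clusters, methylation was 14.9%, 34.4% and 22.6% in testicular, 23.6%, 33.7% and 21.5% in caput, 5.57%, 30.7% and 14.2% in corpus, with 19.6%, 30.8% and 21.1% in cauda. The lowest of all 12 samples there was corpus replicate 1, at 323 reads. In the cluster of 9 sites from 39848418 to 39848454, corpus replicate 1 had 6.03% and corpus replicates 2 and 3 had 23.1% and 10.5%. In the cluster of 6 sites from 39845981 to 39846110 the order was turned, with 42.9% in corpus replicate 1 against 27.0% and 23.0%. Corpus replicate 1 was therefore not shifted in a single direction along the repeat unit. No deep site near an rRNA gene was called above 25 points in caput, corpus or cauda, against 16.8%, 3.96% and 0.233% of all sites.

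The remaining deepest clusters lay outside ribosomal DNA. The site chr14:48669465, 177 bp from the start of Otx2os1 and in the promoter of Otx2, a homeobox gene of head and brain development, was read 568, 462 and 440 times in testicular samples. Its methylation was 1.94%, 0.216% and 2.05% in testicular, 29.6%, 18.1% and 13.7% in caput, 12.2%, 9.77% and 15.3% in corpus, with 1.23%, 1.74% and 0.538% in cauda samples. All caput and all corpus samples were above all testicular samples, and the cauda samples were as low as the testicular ones. The pooled difference was 18.8 points in caput (14.6 without caput replicate 1) and 10.7 in corpus, with 95% half-widths of 2.10 and 2.01 points. By logistic regression with Benjamini-Hochberg adjustment, the adjusted p was 3.88e-69 and 1.71e-28. By limma, which uses the spread between replicates, it was 0.0807 and 0.141, above the threshold of 0.05.

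The site chr8:91805851 in an exon of Irx3os, an antisense transcript of the homeobox gene Irx3, had 0.882%, 1.08% and 1.92% methylation in testicular, 19.05%, 8.48% and 9.68% in caput, 2.83%, 7.69% and 5.11% in corpus, with 0.588%, 0.926% and 0.250% in cauda samples. The caput samples were again all above the testicular samples, by a pooled 10.8 points (7.76 without caput replicate 1), and corpus was higher by 4.10 points. By limma the adjusted p was 0.0776 in caput and 0.328 in corpus. The site chr11:3193466 at the start of Sfi1, which encodes a centrosomal protein, had 95.3%, 95.7% and 94.5% in testicular, 99.3%, 96.5% and 94.2% in caput, 97.6%, 95.6% and 95.8% in corpus, with 94.8%, 97.6% and 92.99% in cauda samples. The groups overlapped at Sfi1, although the coverage in corpus was 42, 458 and 96 reads in replicates 1, 2 and 3.

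Mean methylation over the 1096 deep sites was 50.7%, 51.9% and 51.2% in testicular replicates 1, 2 and 3, 56.4%, 54.1% and 53.2% in caput, 49.3%, 53.6% and 51.4% in corpus, with 51.4%, 51.6% and 50.7% in cauda. By group the mean was 51.3 ± 0.589% for testis, 54.6 ± 1.66% for caput, 51.4 ± 2.18% for corpus and 51.2 ± 0.448% for cauda (SD over 3 samples). All caput samples were above all testicular samples, corpus samples lay on both sides of them, and cauda samples lay within their range or at its lower edge. Caput differed from testis by 3.30 points, corpus by 0.177 and cauda by -0.0373, while at the other autosomal sites the values were 3.18, 0.897 and -0.0150. Without caput replicate 1 the caput difference was 2.38 points, and without corpus replicate 1 the corpus difference was 1.25 points. The corpus difference was -0.929 without corpus replicate 2, -0.0943 without testicular replicate 1 and 0.490 without testicular replicate 2. The cauda difference was 0.276 without testicular replicate 2, 0.217 without cauda replicate 3, and -0.308, -0.0799, -0.122 and -0.207 without testicular replicates 1 and 3 and cauda replicates 1 and 2. With medians in place of means the 3 differences were 10.9, -0.569 and -1.26 points, and with read weights 1.11, -6.86 and -0.564. The medians were 75.7%, 64.9% and 59.9% in caput replicates 1, 2 and 3, against 53.5%, 58.5% and 55.9% in testicular replicates. Much of the caput difference in medians thus rested on caput replicate 1. When every read rather than every site had the same weight, methylation in corpus replicates 1, 2 and 3 was 34.0%, 50.7% and 45.3%, against 49.5%, 50.7% and 50.3% in testicular replicates. Caput samples had 52.8%, 51.2% and 49.8% and cauda samples 49.97%, 50.03% and 48.8% by that measure.

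The mean over all sites hid opposite shifts at its ends. At the 397 deep sites below 10% in testis, where the mean was 1.78 ± 0.164% (SD, n = 3) in testicular samples, methylation was 16.5%, 8.50% and 7.88% in caput replicates 1, 2 and 3. The same sites had 4.04%, 6.26% and 4.97% in corpus replicates, against 1.59 ± 0.0630% (SD, n = 3) in cauda. Every caput and corpus sample was above the testicular mean, and cauda was slightly below it. At the 435 deep sites above 90% in testis, methylation was 96.5 ± 0.198% (SD, n = 3) in testicular samples, 86.7%, 92.1% and 92.6% in caput replicates, then 93.0%, 94.7% and 94.4% in those of corpus, against 97.2 ± 0.148% (SD, n = 3) in cauda. Caput and corpus were thus farther than testis from full or absent methylation, and caput replicate 1 lay farthest. At the 264 sites between, the group means were 51.0% in testis, 60.9% in caput, 50.9% in corpus and 50.1% in cauda. The classes were set by testicular methylation, so part of a shift away from an extreme can come from that choice, which was not tested.

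Depth made the counting error of the segment differences small. The median 95% half-width of a pooled difference from testis was 2.52 points in caput, 2.48 in corpus and 1.90 in cauda at deep sites, against 4.91, 4.58 and 3.55 points at other autosomal sites. Intervals cover counting error only. The pooled difference was under 5 points at 669 deep sites in caput (61.0%), 770 in corpus (70.3%) and 1002 in cauda (91.4%), against 56.5%, 64.8% and 81.7% of all sites. Its median absolute size was 2.94 points in caput, 1.95 in corpus and 1.18 in cauda, against 3.65, 2.76 and 1.72 points over all sites. Separate samples carry more than counting error, so the SD between replicates is given as a description. The sites were taken for each group by the group's own pooled methylation, so they are not the same sites in each. Pooled methylation lay between 10% and 90% at 264, 444, 396 and 248 deep sites in testis, caput, corpus and cauda. The median over these sites of the SD between replicates was 5.81 points in testis, 13.1 in caput, 9.02 in corpus and 6.06 in cauda. Read counting alone gives medians of 2.82, 3.53, 3.90 and 3.35 points. At other autosomal sites the median SD was 9.84, 18.4, 13.8 and 9.61 points, where counting gives medians of 5.94, 7.64, 7.87 and 6.71.

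Each segment was compared with the same testicular samples, so the 3 comparisons are not independent of each other. A site was called where logistic regression on pooled reads gave a Benjamini-Hochberg adjusted p under 0.01 over all 14149 sites and the difference was above 25 percentage points. That test counts reads and ignores the spread between replicates. With its adjusted p alone, 527 deep sites (48.1%) passed in caput, 343 (31.3%) in corpus and 61 (5.57%) in cauda, against 32.4%, 16.8% and 2.25% of the other autosomal sites. More reads give smaller p-values at the same difference, so these shares are not compared further. Separation without a test is given as the number of sites where every sample of a segment lay on the same side of every testicular sample. It held at 383 deep sites in caput, 233 in corpus and 112 in cauda, or 34.9%, 21.3% and 10.2% of them, against 22.2%, 11.1% and 5.34% of all sites. Of these, 229 were higher (14.2% of all sites) and 154 lower (8.01% of all) in caput, 145 higher (7.10%) and 88 lower (3.98%) in corpus, with 64 higher (2.85%) and 48 lower (2.49%) in cauda. For 3 samples against 3, the probability of such separation in either direction is 0.1 without any change. Ties between samples lower it. The cauda share of 10.2% at deep sites lies near that value.

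In caput spermatozoa, 175 deep sites in 119 clusters differed from testis by more than 25 points, 127 of them higher and 48 lower. This is 16.0% of deep sites, against 16.8% of all sites, with 11.5% of all sites higher and 5.25% lower. At 166 of the 175 sites no caput sample overlapped a testicular sample. With a difference above 10 points, 332 deep sites passed against 27.4% of all sites, 212 of them higher (17.0% of all) and 120 lower (10.4% of all). Without caput replicate 1 the count of 175 became 112, with 82 higher and 30 lower, and the count above 10 points became 290. The count of 175 was 0 with an overdispersion term, as it was over all sites, and 294 deep sites had an unadjusted p under 0.05 with that term, against 17.2% of all sites. On simulated data the overdispersion term recovered none of the changes put in, so its counts of 0 say nothing about stability. At the same difference limma called 3 deep sites, against 0.657% of all sites. With limma and a difference above 10 points, 6 deep sites passed at an adjusted p under 0.05, against 0.954% of all sites.

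The 127 called rises had a mean methylation of 15.8%, 16.8% and 16.0% in testicular replicates 1, 2 and 3, 80.1%, 46.9% and 43.8% in caput, 23.4%, 36.3% and 29.2% in corpus, with 16.2%, 15.3% and 14.2% in cauda. The 48 called falls had 85.1%, 89.5% and 88.6% in testicular, 30.0%, 59.1% and 61.6% in caput, 64.9%, 71.5% and 69.8% in corpus, with 87.6%, 87.3% and 86.3% in cauda replicates. Caput replicate 1 lay farthest from testis in both directions, and corpus samples lay between caput and testis. The order of the testicular and caput values follows from the calls. Intergenic DNA held 40.2% of the rises and 52.1% of the falls, and introns 39.6% of the falls. Promoters held 32.3% of the rises and 8.33% of the falls, against 49.3% of the 921 deep sites that were not called. A site below 10% in testis cannot fall by more than 25 points, nor can a site above 90% rise by as much. The falls held 0 sites below 10% and the rises 0 sites above 90%. Promoters held 79.8% of the deep sites below 10% and 14.7% of those above 90%. The call rule thus bears on these shares, which were not compared within a class of testicular methylation.

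The largest rise in caput was at chr5:28457808. At this site, within the gene of the morphogen Shh and 466 bp from the start of 9530036O11Rik, methylation was 0%, 1.23% and 0% in testicular, 89.3%, 64.8% and 39.02% in caput, 9.33%, 22.4% and 17.2% in corpus, with 0.813%, 0% and 2.91% in cauda replicates 1, 2 and 3. Coverage there was 169, 162 and 140 reads in testicular and 140, 142 and 123 in caput samples. The caput samples did not overlap any other group, although they ranged widely among themselves. The pooled difference from testis was 65.01 points with all samples and 52.4 without caput replicate 1, and the adjusted p was 8.58e-114 by logistic regression and 0.0675 by limma. At chr2:73543600, 13866 bp from the start of Wipf1, which encodes a partner of the Wiskott-Aldrich protein, methylation was 2.30%, 7.69% and 4.92% in testicular, 96.8%, 56.2% and 43.97% in caput, 14.5%, 27.4% and 17.9% in corpus, with 4.85%, 5.66% and 4.90% in cauda samples. Caput was the highest group, corpus was intermediate without overlapping testis, and cauda lay within the testicular range. The difference was 64.6 points, and 45.7 without caput replicate 1, with an adjusted p of 6.17e-119 by logistic regression and 0.162 by limma.

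At chr2:169099917, 6536 bp from the start of Gm14258, testicular samples had 8.09%, 7.78% and 9.52%, caput 93.1%, 53.5% and 45.03%, corpus 23.7%, 36.1% and 29.9%, and cauda 8.39%, 7.58% and 6.21%. At chr14:63494479 in Tdh, the gene of threonine dehydrogenase, testicular samples had 22.6%, 8.93% and 9.70%, caput 84.9%, 64.9% and 44.4%, corpus 29.3%, 55.9% and 23.5%, and cauda 4.40%, 13.1% and 17.7%. At both sites every caput sample was above every testicular sample, with caput replicate 1 the highest. The differences of 55.03 and 54.97 points became 41.4 and 44.6 without caput replicate 1, and limma gave adjusted p-values of 0.153 and 0.139.

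The largest fall in caput was at chr16:8769364 in an intron of Usp7, which encodes a deubiquitinating enzyme. Methylation was 97.4%, 96.1% and 92.7% in testicular, 18.9%, 52.8% and 56.1% in caput, 74.6%, 69.9% and 70.8% in corpus, with 98.8%, 97.8% and 91.6% in cauda samples, at 111, 193 and 157 reads in caput. Caput and corpus did not overlap testis or each other, and cauda overlapped testis. The difference of caput from testis was -49.7 points, and -41.1 without caput replicate 1, with an adjusted p of 5.1e-74 by logistic regression and 0.0887 by limma. At chr4:139836309, 2781 bp from the start of Pax7, a gene of muscle precursors, testicular samples had 91.99%, 95.7% and 93.3%, caput 25.2%, 64.7% and 51.7%, corpus 28.05%, 67.9% and 79.4%, and cauda 93.1%, 97.9% and 92.6%. This site was among the largest falls of both caput and corpus, and corpus replicate 1 was close to caput replicate 1 there. Without caput replicate 1 its caput difference of -47.6 points became -34.6.

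At chr11:90033352 in an intron of Tmem100, testicular samples had 95.4%, 88.3% and 92.8%, caput 17.2%, 55.02% and 62.6%, corpus 62.2%, 71.3% and 70.1%, and cauda 93.5%, 96.3% and 97.2%. At chr3:96427875, 5142 bp from the start of Gm24136, they had 98.4%, 95.7% and 97.6%, with 25.6%, 61.2% and 57.98% in caput, 58.8%, 82.03% and 60.98% in corpus, with 98.7%, 98.8% and 98.4% in cauda. Caput and corpus were below testis in every sample at both sites, and corpus replicate 1 rested on 17 reads at the latter. Their caput differences of -47.03 and -45.4 points became -34.2 and -37.4 without caput replicate 1, and limma gave adjusted p-values of 0.141 and 0.0699. The surroundings of an intergenic rise and of the Usp7 fall are shown because they have the caput changes at a single measured CpG each. Both are the + strand of GRCm38 from 5′ to 3′, with capitals on the measured CpG.
chr2:73543541-73543660: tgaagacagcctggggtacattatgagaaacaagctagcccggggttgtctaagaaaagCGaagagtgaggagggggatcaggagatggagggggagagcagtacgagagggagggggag
chr16:8769305-8769424: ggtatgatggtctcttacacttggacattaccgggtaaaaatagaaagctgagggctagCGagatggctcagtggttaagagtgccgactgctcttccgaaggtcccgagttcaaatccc

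The 6 deep sites that passed limma in caput with a difference above 10 points were looked at after their values were known. The smallest adjusted p among them was at chr5:135258563, 5763 bp from the start of 9430007M09Rik, where methylation was 0%, 0% and 0.575% in testicular, 23.7%, 23.2% and 20.3% in caput, 0%, 17.9% and 9.25% in corpus, with 0%, 1.36% and 1.51% in cauda samples. The caput replicates were within a few points of each other there, replicate 1 included, and corpus replicate 1 had no methylated read at 94 reads. The difference was 22.5 points, with an adjusted p of 0.00763 by limma. At chr12:95691584 in the promoter of Flrt2, which encodes a cell adhesion protein, testicular samples had 6.02%, 4.19% and 3.40%, caput 56.6%, 32.7% and 43.8%, corpus 11.1%, 27.4% and 20.1%, and cauda 3.50%, 7.79% and 4.17%. At chr18:60782936, 3542 bp from the start of Gm8731, they had 90.2%, 94.6% and 95.2%, with 55.6%, 46.8% and 58.1% in caput, 70%, 73.97% and 83.3% in corpus, with 94.4%, 97.1% and 89.6% in cauda. The groups of testis, corpus and caput did not overlap at either site, and limma gave adjusted p-values of 0.0443 and 0.0359.

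The remaining sites of the 6 were chr1:168676889 in the promoter of 1700063I16Rik, chr4:100335794 in an intron of the receptor gene Ror1, and chr5:117314455 in the promoter of BC051077. At Ror1, testicular samples had 96.6%, 98.8% and 98.4%, caput 65.9%, 78.7% and 79.4%, corpus 26.8%, 77.9% and 68.7%, and cauda 96.6%, 99.6% and 97.3%. The lowest of all samples at Ror1 was corpus replicate 1, on 41 reads against 298 and 67 in corpus replicates 2 and 3. At BC051077, testicular samples had 50.6%, 55.3% and 48.4%, caput 24%, 28.7% and 28.9%, corpus 32.3%, 34.98% and 38.5%, and cauda 32.9%, 37.6% and 40.1%. Every epididymal sample was below every testicular sample at BC051077, with caput lowest. The limma adjusted p in caput was 0.0348 at 1700063I16Rik, 0.0485 at Ror1 and 0.0399 at BC051077. These values depend on the constant that was added to both percentages before the log ratio was taken, a pseudo-percent of 1. With a pseudo-percent of 5, limma called 1 deep site above 25 points, a fall. The rises at Flrt2 and 1700063I16Rik, of 38.4 and 28.5 points, thus did not pass with it.

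In corpus spermatozoa, 19 deep sites in 15 clusters differed from testis by more than 25 points, 11 higher and 8 lower. This is 1.73% of deep sites, against 3.96% of all sites, with 2.69% of all sites higher and 1.27% lower. At 18 of the 19 sites no corpus sample overlapped a testicular sample. Above 10 points, 191 deep sites passed against 13.8% of all sites, 120 of them higher (8.54% of all) and 71 lower (5.25% of all). The count of 19 became 29 without corpus replicate 1 (23 higher and 6 lower), 40 without corpus replicate 2 (9 higher and 31 lower) and 24 without corpus replicate 3 (17 higher and 7 lower). It became 29 without testicular replicate 1 (15 higher and 14 lower), 21 without testicular replicate 2 (14 higher and 7 lower) and 18 without testicular replicate 3 (8 higher and 10 lower), so the balance of rises and falls depended on single libraries. The count was 0 with an overdispersion term and 0 with limma, against 0 and 0.127% of all sites. Unadjusted p-values under 0.05 were found at 181 deep sites with the overdispersion term, 194 with limma and 536 by logistic regression, against 9.56%, 9.01% and 36.8% of all sites. With limma and a difference above 10 points, 5 deep sites passed at an adjusted p under 0.05, against 0.360% of all sites.

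In corpus, rises are given at 3 sites. At chr3:49934348 in an intron of Slc7a11, the cystine transporter gene, testicular samples had 7.03%, 3.52% and 3.61%, caput 89.3%, 48.2% and 44.9%, corpus 48.9%, 35.4% and 26.4%, and cauda 11.9%, 11.6% and 10.4%. Every epididymal sample was above every testicular sample at Slc7a11. The differences were 53.1 points in caput (41.8 without caput replicate 1), 30.7 in corpus (26.9 without corpus replicate 1) and 6.59 in cauda, with limma adjusted p-values of 0.115, 0.103 and 0.590. In cauda the adjusted p by logistic regression was 0.00425 with all samples, and 0.0384, 0.0237, 0.0209 and 0.0149 without testicular replicate 2 or 3 or cauda replicate 1 or 2.

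At chr16:56613805 in an intron of Abi3bp, which encodes an extracellular matrix protein, testicular samples had 11.9%, 12.2% and 9.25%, caput 97.9%, 41.4% and 44.8%, corpus 49.4%, 43.4% and 35.6%, and cauda 2.54%, 13.7% and 8%. At chr10:21690325 in the promoter of Gm5420, they had 6.43%, 2.57% and 2.98%, with 86.8%, 42.9% and 49.5% in caput, 29.03%, 40.3% and 27.2% in corpus, with 1.83%, 0% and 3.09% in cauda. Corpus samples lay apart from testis at both sites, and cauda samples overlapped testis. Their corpus differences of 29.9 and 29.2 points were 28.3 and 30.6 without corpus replicate 1, and the latter was 23.8 without corpus replicate 2, below the limit of 25 points. For both, limma gave adjusted p-values of 0.0541 and 0.0817.

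The largest fall in corpus was at chr8:27188217, 10500 bp from the start of Got1l1, where testicular samples had 95%, 99.4% and 95.5%, caput 31.9%, 69.8% and 40.6%, corpus 70%, 66.3% and 10.7%, and cauda 99.2%, 96.2% and 86.3%. The coverage in corpus was only 10, 92 and 28 reads, and corpus replicate 3 was far below the other corpus samples. The difference of -41.9 points was -43.1, -70.2 and -29.8 without corpus replicates 1, 2 and 3 in turn, with an adjusted p of 2.25e-29 by logistic regression and 0.350 by limma. At chr13:97291281, 8098 bp from the start of C430039J16Rik, testicular samples had 71.1%, 79.2% and 89.8%, caput 56.02%, 55.1% and 61.7%, corpus 28.4%, 56.6% and 35.8%, and cauda 72.8%, 71.7% and 66.7%. At chr4:28176846, 109669 bp from the start of Gm11911, they had 63.8%, 66.8% and 61.4%, with 37.6%, 43.1% and 45.5% in caput, 0%, 43.7% and 22.9% in corpus, with 53.9%, 46.1% and 53.02% in cauda. At both sites the lowest of all samples was corpus replicate 1, with no methylated read among 47 at the latter, where its upper limit is 6.38%. The differences of -34.6 and -34.4 points became -30.6 and -27.6 without it. At the site near Pax7 the corpus difference of -29.2 points became -22.0 without corpus replicate 1, below the limit of 25 points.

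The 5 deep sites that passed limma in corpus with a difference above 10 points were looked at after their values were known. They included chr1:168676889 in the promoter of 1700063I16Rik, where testicular samples had 0%, 0.787% and 0.529%, caput 41.1%, 19.7% and 33.3%, corpus 15.9%, 30.1% and 23.5%, and cauda 0.676%, 0.649% and 1.14%. Caput and corpus were both clearly above testis there, and cauda was not. The limma adjusted p was 0.0348 in caput and 0.0429 in corpus. At chr16:94011016 and chr16:94011041, both in the promoter of 2410003I16Rik and within the same cluster, the corpus samples had 18.3%, 30.5% and 21.8% and 25%, 32.1% and 24.2%. Testicular samples had 3.21%, 2.38% and 2.66% and 2.70%, 5.14% and 2.69% at these sites. The corpus samples were thus far above the testicular samples, by 21.8 and 23.9 points, with limma adjusted p-values of 0.0441 and 0.0483.

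The other 2 sites were falls. At chr11:90033356 in Tmem100, next to the caput fall described above, testicular samples had 95.4%, 96.1% and 96.6%, caput 30.05%, 59.4% and 63%, corpus 77.03%, 70.97% and 76.4%, and cauda 97.1%, 97.3% and 99.1%. At chr10:96264555, 38348 bp from the start of 4930459C07Rik, they had 93.7%, 91.2% and 93.6%, with 23.3%, 61.6% and 58.3% in caput, 74.4%, 78.7% and 78.4% in corpus, with 95.5%, 91.01% and 94.8% in cauda. The corpus replicates, replicate 1 included, lay close together at both sites and below every testicular sample. The differences were -22.3 and -15.4 points, with limma adjusted p-values of 0.0161 and 0.0488.

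In cauda spermatozoa, 0 deep sites differed from testis by more than 25 points by logistic regression, against 0.233% of all sites, although 333 deep sites had an unadjusted p under 0.05, against 22.7% of all sites. The count was also 0 with limma and with an overdispersion term, and both gave 0 over all sites. By these, 82 and 50 deep sites had an unadjusted p under 0.05, against 4.06% and 3.07% of all sites. It became 2 without testicular replicate 1 and 1 without cauda replicate 1. Above 10 points, 25 deep sites in 17 clusters passed by logistic regression against 1.43% of all sites, 5 of them higher (0.580% of all) and 20 lower (0.855% of all). At 14 of the 25 sites no cauda sample overlapped a testicular sample. With limma and a difference above 10 points, 0 deep sites passed at an adjusted p under 0.05, against 0.0353% of all sites. The largest pooled rise at any deep site was 14.1 points and the largest fall was -18.2 points.

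The largest fall in cauda was at chr9:83780616 in an exon of Elovl4, which encodes an elongase of very long-chain fatty acids. Methylation was 70.98%, 87.7% and 80.98% in testicular, 100%, 94.1% and 89.4% in caput, 80%, 85.2% and 76.7% in corpus, with 61.7%, 66.2% and 57.1% in cauda samples. All caput samples were above and all cauda samples below the testicular samples. The cauda difference was -18.2 points with a half-width of 5.44 points, and the adjusted p was 9.5e-08 by logistic regression and 0.830 by limma. At chr8:81768127 in the promoter of Inpp4b, an inositol phosphatase gene, testicular samples had 40.3%, 47.1% and 45.7%, caput 77.2%, 46.5% and 33.7%, corpus 16.4%, 41.7% and 15%, and cauda 36.2%, 22.1% and 21.5%. Corpus replicates 1 and 3 and all cauda samples were below testis there, while caput lay on both sides. The cauda difference was -18.1 points, with a limma adjusted p of 0.830.

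At chr10:89257219 in the promoter of Ano4, an anoctamin gene, testicular samples had 39.1%, 47.2% and 53.98%, caput 4.40%, 19.7% and 20%, corpus 10%, 32.9% and 22.99%, and cauda 36.2%, 33.3% and 23.1%. Every epididymal sample was below every testicular sample, and the same held at the BC051077 site given above. The cauda differences were -16.05 points at Ano4 and -14.99 at BC051077, with limma adjusted p-values of 0.830 and 0.445. By logistic regression the adjusted p was 0.000115 at Ano4, and 0.0139 and 0.0191 without testicular replicate 3 or cauda replicate 3. At BC051077 it was 0.000657, and 0.0144 and 0.0203 without testicular replicate 2 or cauda replicate 1. Among rises without overlap, the largest was at chr12:20233353 in an intron of Gm49692, where testicular samples had 58.7%, 54.3% and 43.2%, caput 38.7%, 66.9% and 65.7%, corpus 48.8%, 60.4% and 68.4%, and cauda 60.8%, 67.2% and 67.6%. The cauda samples were above testis by 12.98 points, while caput and corpus overlapped testis. The adjusted p by logistic regression was 0.000999, and 0.0612, 0.0131 and 0.0184 without testicular replicate 3, cauda replicate 2 or cauda replicate 3. Without testicular replicate 3 the difference was 8.92 points, below 10 points.

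At chr14:97168975, 116007 bp from the start of Gm33525, testicular samples had 85.7%, 92.1% and 90.4%, caput 98.2%, 91.2% and 83.3%, corpus 100%, 98.3% and 100%, and cauda 96.3%, 98.4% and 95.3%. At chr10:52503309, 11468 bp from the start of Gm47609, they had 90.2%, 91.6% and 89.9%, with 100%, 98.5% and 100% in caput, 91.6%, 93.4% and 100% in corpus, with 94.4%, 99.3% and 97.3% in cauda. Corpus reached nearly full methylation at the former and caput at the latter, and cauda was above testis at both. The cauda differences were 7.41 and 6.06 points, with limma adjusted p-values of 0.791 and 0.830. At the latter the adjusted p by logistic regression was 0.00302, and 0.0103, 0.0419 and 0.0261 without testicular replicate 1, cauda replicate 2 or cauda replicate 3. The surroundings of the Elovl4 fall are shown because 4 measured CpGs lie close together there. They are the + strand of GRCm38 from 5′ to 3′, with capitals on the measured CpGs.
chr9:83780556-83780675: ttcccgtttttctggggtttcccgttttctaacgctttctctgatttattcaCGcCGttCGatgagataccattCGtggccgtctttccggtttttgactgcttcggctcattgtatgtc

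Of 64 sites of the table near Hox genes, which pattern the body axis, 9 were deep, near Hoxa9, Hoxa10, Hoxa11 and Hoxb4. Their mean methylation was 1.02%, 1.53% and 1.21% in testicular replicates 1, 2 and 3, 7.13%, 4.52% and 3.73% in caput, 3.64%, 3.31% and 3.86% in corpus, with 0.870%, 1.67% and 1.23% in cauda. Caput and corpus samples were above all testicular and cauda samples, at a low level. The median difference at the 9 sites was 2.72 points in caput, 3.18 in corpus and 0.0428 in cauda, against 0 over all sites in each comparison. The 397 deep sites below 10% in testis, to which the 9 belong, had 16.5%, 8.50% and 7.88% in caput replicates 1, 2 and 3. In corpus replicates they had 4.04%, 6.26% and 4.97%. The Hox means were below these values in every caput and corpus sample. None of the 9 Hox sites passed 25 points, against 16.8%, 3.96% and 0.233% of all sites in caput, corpus and cauda. At chr6:52229448 in the promoter of Hoxa9, the only Hox site with a call above 10 points, caput samples had 26.4%, 7.72% and 8.90% and testicular samples 5.57%, 2.18% and 1.32%. The pooled difference was 10.1 points, or 4.82 and thus below 10 points without caput replicate 1, and the limma adjusted p was 0.260.

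At chr6:52246028 near Hoxa11, a small shift was measured closely. Testicular samples had no methylated read in 400, 380 and 347 reads, which sets upper limits of 0.750%, 0.789% and 0.865% in replicates 1, 2 and 3. Caput samples had 5.86%, 4.44% and 5.07%, corpus 3.90%, 0.905% and 4.50%, and cauda 1.03%, 0.735% and 1.32%. Upper ends of the 95% intervals were 0.951%, 1.001% and 1.09% in testicular replicates 1, 2 and 3. Every caput sample, corpus replicates 1 and 3 and cauda replicate 3 were above all of these limits and interval ends. Cauda replicate 1 was above all but the interval end of testicular replicate 3. Corpus replicate 2 was above the limits but below the interval ends, and cauda replicate 2 was below both. The caput replicates were close together. The caput difference was 4.996 points with a half-width of 1.26 points, and the adjusted p was 6.63e-18 by logistic regression and 0.00451 by limma. In corpus the difference was 3.32 points and in cauda 1.04. The adjusted p was 2.72e-10 and 0.00563 by logistic regression and 0.278 and 0.139 by limma. The cluster holds 4 deep sites. At chr6:52246009, chr6:52246016 and chr6:52246036 the caput differences were 0.786, 1.13 and 2.72 points, with limma adjusted p-values of 0.605, 0.605 and 0.0641. Caput samples overlapped testicular samples at chr6:52246009 and chr6:52246016, and lay above them at chr6:52246036.

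Of 34 sites near protocadherin genes, which encode adhesion proteins of neurons, 2 neighbouring sites were deep, in the promoter of Pcdhga8. At the first, chr18:37726758, testicular samples had 14.1%, 4.42% and 1.07%, caput 50.9%, 25.5% and 17.4%, corpus 12.9%, 21.02% and 2.78%, and cauda 6.78%, 5.32% and 3.07%. Caput was above testis in every sample, and both sites were called above 25 points (16.8% of all sites), with a limma adjusted p of 0.264 at the first. Without caput replicate 1 the differences were 16.7 and 14.0 points, so that neither site kept that call. Of 219 sites near zinc finger genes, 8 were deep, near Zfp106, Zfp362, Zfp536, Zfp672, Zfp710 and Zfp827. Their mean methylation was 18.6%, 18.4% and 19.01% in testicular, 18.9%, 16.5% and 17.99% in caput, 18.5%, 19.3% and 17.9% in corpus, with 19.2%, 19.6% and 19.4% in cauda samples. None of the 8 passed even 10 points in any segment. Of the 37 deep sites near rRNA genes, 3 were higher and 1 lower by more than 10 points in caput, 3 higher and 2 lower in corpus and 0 in cauda. Without replicate 1 of the segment these counts became 0 higher and 2 lower in caput and 0 higher and 2 lower in corpus. With all samples, 17.0% of all sites were higher and 10.4% lower in caput, 8.54% and 5.25% in corpus, and 1.43% either in cauda. These shares do not apply to the counts without replicate 1.

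Corpus replicate 1 held 110572 reads at deep sites, against 222857 and 157391 in corpus replicates 2 and 3. To compare depth site by site, its coverage was divided by the mean of corpus replicates 2 and 3 after scaling each library by its reads at the other autosomal sites. This relative depth had a median of 0.919 over deep sites, with 0.282 at the 5th and 1.75 at the 95th percentile. It was below 0.5 at 224 deep sites and above 2 at 20. Measured the same way, corpus replicate 2 was below 0.5 at 12 sites and above 2 at 113, and corpus replicate 3 at 34 and 10. The SD of the log2 relative depth was 0.81 in corpus replicate 1, against 0.68 in corpus replicate 2 and 0.46 in corpus replicate 3. The reference of the latter replicates includes corpus replicate 1. In the cauda samples the same SD was 0.29, 0.26 and 0.28. The total share of reads at deep sites was thus ordinary in corpus replicate 1, while reads were unevenly spread among these sites.

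Depth in corpus replicate 1 followed methylation. With the cauda samples as reference, the median relative depth in corpus replicate 1 was 1.52 at deep sites below 10% testicular methylation, 0.875 at those between and 0.591 at those above 90%. The same medians were 1.07, 1.09 and 1.02 in corpus replicate 2 and 1.20, 0.855 and 0.953 in corpus replicate 3. Across the 1096 deep sites, the log2 relative depth of corpus replicate 1 against the cauda samples had a Pearson's r of -0.613 with pooled testicular methylation. By the same measure, also against the cauda samples, r was -0.165 in corpus replicate 2, -0.330 in corpus replicate 3, -0.167, -0.129 and -0.159 in caput and 0.0307, 0.0602 and 0.102 in testicular replicates 1, 2 and 3. Cauda replicates, each against the other cauda replicates, had 0.0222, 0.00683 and -0.0399. These are descriptions over sites that share libraries, fragments and base composition, and all testicular, caput and corpus values share the cauda reference. At the other autosomal sites r was -0.336 in corpus replicate 1, and with the GC content around deep sites it was 0.117.

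The median coverage in corpus replicate 1 was 125 reads at deep sites below 10% testicular methylation, 83 at those between and 50 at those above 90%, against 162, 115.5 and 114 reads in corpus replicate 3. Of the 224 sites with a relative depth below 0.5, 173 were above 90% in testis, 49 lay between and 2 were below 10%. Introns held 37.1% of these sites, intergenic DNA 31.7% and promoters 25.9%. Of the 20 sites with a relative depth above 2, 16 were below 10% and 4 lay between, and promoters held 18 of them. Fully methylated sites were thus read less and unmethylated promoters more in this library than in the other corpus libraries, and the origin of this was not tested. It is also seen in the read-weighted methylation of 34.0%, which gives most weight to the deep, unmethylated sites.

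Low relative depth is given at 2 sites. At chr4:119148009, 9208 bp from the start of Gm12868, the corpus samples had 16, 288 and 120 reads and a methylation of 100%, 97.2% and 100%, with a relative depth of 0.139. At chr5:52553019 in an intron of Lgi2, they had 11, 202 and 73 reads and 90.9%, 92.6% and 65.8%, with a relative depth of 0.143. At neither site was the methylation of corpus replicate 1 below that of both other corpus replicates.

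The highest relative depth was at chr9:90126823, 7886 bp from the start of Gm6223, with 151, 91 and 79 reads and a methylation of 0%, 3.30% and 7.59% in corpus replicates 1, 2 and 3, and a relative depth of 2.99. At chr10:90829991, 148 bp from the start of Anks1b, the corpus samples had 220, 154 and 139 reads and 0%, 0.649% and 0%, with a relative depth of 2.52. At chr1:184732467, 152 bp from the start of the homeobox gene Hlx, they had 279, 175 and 192 reads and 0%, 0% and 0%, with a relative depth of 2.51. All corpus and testicular samples were below 10% at these sites. The surroundings of the site with the highest relative depth are shown because a single CpG is measured there. They are the + strand of GRCm38 from 5′ to 3′, with capitals on the measured CpG.
chr9:90126763-90126882: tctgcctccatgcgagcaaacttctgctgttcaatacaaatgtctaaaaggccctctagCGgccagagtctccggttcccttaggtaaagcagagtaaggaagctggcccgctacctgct

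In methylation, corpus replicate 1 differed on average by -3.22 points from the mean of corpus replicates 2 and 3 over the deep sites, with a mean absolute distance of 6.98 points. With medians in place of means the difference was -0.0790 points, and with read weights it was -14.0. Against the other replicates of their group, corpus replicate 2 was 3.32 points above and corpus replicate 3 differed by -0.0971 points, with absolute distances of 5.60 and 4.99 points. Corpus replicate 1 was below both others at 389 deep sites and above both at 281. Corpus replicate 2 was the lowest at 220 and the highest at 380, and corpus replicate 3 the lowest at 284 and the highest at 252. Distances above 10 points occurred at 246 deep sites (22.4%) in corpus replicate 1, 195 (17.8%) in corpus replicate 2 and 159 (14.5%) in corpus replicate 3.

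At deep sites below 10%, between and above 90% in testis, corpus replicate 1 differed from the other corpus replicates by -1.57, -8.47 and -1.53 points on average. The same values were 1.75, 9.53 and 0.969 points for corpus replicate 2 and -0.179, -1.06 and 0.564 for corpus replicate 3, so the middle sites set replicate 2 apart as much as replicate 1. At the 293 deep sites with fewer than 50 reads in corpus replicate 1 its mean difference was -4.65 points and the mean absolute distance 9.65 points. At the 803 sites with at least 50 reads these were -2.70 and 6.01 points, and at the 417 sites with at least 100 reads -1.77 and 4.06 points. The difference of corpus replicate 1 kept its sign at these depths and was smaller at higher depth. The sites with at least 100 reads were also mostly unmethylated, with a mean testicular methylation of 23.7% against 86.6% at the sites below 50 reads, so depth and methylation cannot be told apart here. At the 224 sites with a relative depth below 0.5 the mean difference was -4.12 points, and at the 20 sites above 2 it was -0.869.

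Of the deep CpGs, 6 were read on both strands, which gives a reading of the same CpG within a library from different fragment ends. The median difference between strands was 26.3 points in corpus replicate 1 and between 1.90 and 10.3 points in the other 11 samples. With 6 pairs this is a description. In corpus replicate 1, none of the 6 pairs was within 5 points and 3 were more than 25 points apart, while in corpus replicate 2 all 6 were within 5 points.

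The largest departure without overlap was at chr12:20234221 in the promoter of Gm48668, where methylation was 95.6%, 87.8% and 73.2% in testicular, 79.8%, 81.6% and 91.7% in caput, 19.6%, 97.4% and 96.4% in corpus, with 72.6%, 99.3% and 97.2% in cauda samples. Corpus replicate 1 was far below all other samples, on 56, 154 and 84 reads in corpus replicates 1, 2 and 3. The 31 bases around this site occurred 2 times in the genome, and mixing of reads between copies was not tested. Its 95% interval ran from 11.3% to 31.8%, that of corpus replicate 2 from 93.5% to 98.99% and that of corpus replicate 3 from 90.02% to 98.8%. At chr8:118159288, 38334 bp from the start of Gm25200, testicular samples had 92.9%, 98.7% and 96.6%, caput 70.7%, 96.9% and 92.8%, corpus 31.2%, 97.3% and 100%, and cauda 99.5%, 93.6% and 98.7%. Corpus replicate 1 rested on 16 reads there, with an interval from 14.2% to 55.6%, which did not reach the other corpus replicates.

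At chr11:3193457, a few bases from the Sfi1 site given above, corpus samples had 50%, 94.7% and 94.1% on 16, 132 and 17 reads, while testicular samples had 88.2%, 93.98% and 95.8%. Caput samples had 100%, 75.5% and 91.5% and cauda samples 96.5%, 89.8% and 87.1% at that site. The lowest value was that of corpus replicate 1, with an interval from 28% to 72%. At chr4:37971347 in the promoter of Gm12378, testicular samples had 26.2%, 10.1% and 4.61%, caput 83.3%, 61.3% and 50.5%, corpus 3.45%, 45.8% and 50%, and cauda 12.1%, 26.7% and 38.4%. Corpus replicate 1 was the lowest of all samples here too, with an interval from 0.951% to 11.7% on 58 reads, while the other corpus replicates were close to the lower caput samples. At these sites, picked for their departure, corpus replicate 1 thus went down both from methylated sites and from sites of middle methylation. Over all deep sites it was below both other corpus replicates at 389 and above both at 281. The surroundings of the site in the Gm48668 promoter are shown because 5 CpGs are measured around it. They are the + strand of GRCm38 from 5′ to 3′, with capitals on the measured CpGs.
chr12:20234162-20234281: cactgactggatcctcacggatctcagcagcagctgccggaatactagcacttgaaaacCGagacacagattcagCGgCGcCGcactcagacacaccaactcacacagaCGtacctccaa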

How the data were processed

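RRBS was measured in 12 samples of sorted spermatozoa, 3 for each of 4 origins. Per the submitters' processing notes, reads were processed with Trim Galore 0.4.1, Bismark 0.16.1 and methylKit on GRCm38. The deposited table gives, for each sample and site, a raw count for the total, the methylated and the unmethylated reads, and a site has at least 10 reads in every sample. All 36 per-sample columns were used. The authors' deposited lists of sites and regions hold differences, p-values and q-values of their comparisons only and were not used. All 13917 autosomal sites were checked to lie on a CpG of GRCm38, and genes came from GENCODE M21.

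At every site, pooled methylated and unmethylated reads of a segment and of testis were compared by a likelihood-ratio test of a logistic regression, adjusted by the Benjamini-Hochberg method over 14149 sites. limma was fitted across all sites to the log2 ratio of methylated to unmethylated percentages with a pseudo-percent of 1. Alternatives were an overdispersion term, limma with a pseudo-percent of 5, other difference, p and depth limits, a replicate block, 1 site per cluster, medians, read weights and leaving out each library. The tests were tested on simulated data with known changes: logistic regression, with and without the block, recovered all of them, limma most of them and the overdispersion term none at its threshold. The simulated reads had counting error only and no further spread between replicates. They therefore do not show how a test on pooled reads behaves with the spread seen here. Intervals are Wilson intervals at 95%. At the median deep coverage of a library, 84 to 229 reads, 1 read is worth about a percentage point or less. It is worth more at sites with fewer reads, such as the 293 deep sites under 50 reads in corpus replicate 1.

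Named sites were the deepest clusters, for each segment up to 4 clusters with the largest rise and fall past the adjusted p without overlap of samples, the 3 sites on each side of 150 reads, the clusters where corpus replicate 1 departed most in methylation or depth, and sites near genes of fixed lists (rRNA, imprinted, Acr, germline, Hox, protocadherin and zinc finger genes). Of the sites this rule names, 2 are not reported here. Members and lists were chosen with earlier results of these data known. Computing used limma 3.58.1 under R 4.3.3, and scipy 1.17.1, numba 0.67.0, pandas 2.3.3 and numpy 2.4.6 under Python 3.11.15.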

Additional observations from a re-analysis of the deposited data

Results flagged for a closer look

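At 8 deep sites (0.730%, against 0.254% of all sites) past the adjusted p in both segments, every sample of a segment lay above every testicular sample and every sample of another segment lay below. The difference between the segments themselves was not tested. At chr9:83780616 in Elovl4 the pooled difference from testis was 15.4 points in caput (12.6 without caput replicate 1) and -18.2 in cauda, and at the neighbouring chr9:83780631 it was 14.8 (11.1 without that replicate) and -16.0 points. At chr10:69540769 and chr10:69540771 in an intron of Ank3, it was 40.2 and 40.3 points in caput (28.2 and 24.9 without its replicate 1) and -11.3 and -11.9 in cauda. Caput samples had 77.8%, 44.8% and 39.6% at the first Ank3 site, testicular samples 15.1%, 16.02% and 11.1% and cauda samples 4.31%, 3.81% and 1.72%. At chr11:63412273 in the promoter of B130011K05Rik, it was 51.6 points in caput (43.7 without its replicate 1) and -5.53 in cauda. Testicular samples had 4.23%, 8.63% and 7.47%, caput 73.4%, 57.9% and 45.03% and cauda 0.699%, 3.42% and 0% there. At chr6:118533391 in an exon of Ankrd26, it was 47.2 points in caput (36.5 without its replicate 1), 13.1 in corpus and -8.04 in cauda, where testicular samples had 14.2%, 4.62% and 12.1% and cauda samples 1.52%, 2% and 1.89%. At chr5:124041096 in an intron of Gm34086, it was -22.6 points in caput (-16.3 without its replicate 1) and 4.56 in cauda, with 93.1%, 93.9% and 94.3% in testicular, 48.7%, 74.8% and 81.02% in caput and 96.9%, 100% and 97.8% in cauda samples. At chr6:24453836 in an intron of Iqub, it was 9.26 points in caput and -10.9 in corpus (11.1 and -9.93 without their replicates 1), with 86.2%, 89.02% and 83.4% in testicular, 90.9%, 97.5% and 97.5% in caput and 71.2%, 80.7% and 66.2% in corpus samples. Cauda samples had 81.1%, 81.9% and 81.1% at Iqub, all below testis, with a difference of -5.00 points and an adjusted p of 0.168 by logistic regression.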

How the results depend on the processing

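The 175 deep sites called in caput became 0 with an overdispersion term, 3 with limma, 1 with limma and a pseudo-percent of 5, 73 above 40 points, 332 above 10 points, 356 with sites of at least 100 reads (2285 sites), 90 with at least 200 reads (576 sites), 12 with at least 150 reads in every sample (153 sites) and 112 with 1 site per cluster, and ranged from 112 to 206 when a library was left out. The 19 calls in corpus became 0 with an overdispersion term, 0 with limma at either pseudo-percent, 1 above 40 points, 191 above 10 points, 45 with at least 100 reads, 9 with at least 200 reads, 1 with at least 150 reads in every sample and 11 with 1 site per cluster, and ranged from 18 to 40 when a library was left out. The 0 calls in cauda became 25 above 10 points and 1 with at least 100 reads, stayed at 0 under the other settings, and ranged from 0 to 2 when a library was left out. An adjusted p under 0.001 changed no count. With the replicate number as a block the counts were 175, 19 and 0 at deep sites. Over all sites they were 2376, 560 and 32, against 2377, 560 and 33. The adjusted p of the 24 named rises and falls stayed under 0.01 with the block. No label says that numbers pair the samples, and the residuals of a replicate number correlated with those in testis by -0.0293, -0.00866 and -0.0135 in caput, -0.0219, 0.0412 and -0.0203 in corpus, with -0.123, 0.0281 and -0.0720 in cauda. The mean methylation of caput minus testis, 3.30 points, became 10.9 with medians and 1.11 with read weights, and ranged from 2.38 to 3.99 when a library was left out. That of corpus, 0.177 points, became -6.86 with read weights and ranged from -0.929 to 1.25. That of cauda, -0.0373 points, became -1.26 with medians and ranged from -0.308 to 0.276. The share of reads of corpus replicate 1 at deep sites, 26.3%, was 39.3% with at least 100 reads, 17.7% with at least 200 reads and 15.1% with 1 site per cluster, which changes the number of sites, and its median relative depth was 0.919. Its methylation difference from the other corpus replicates, -3.22 points, became -0.0790 with medians and -14.0 with read weights, and was between -4.36 and -2.08 otherwise. Of the 24 named rises and falls, all lost the adjusted p with limma and with the overdispersion term, none reversed, and 14 of their leave-one-out fits passed the threshold no longer while 130 did. All 14 were fits of cauda against testis. The overdispersion term recovered no change in simulated data, so losses with it are no measure of stability. The cause was not tested for any of these changes. Tests on pooled reads ignore the spread between samples, and clusters share reads, so counts of sites are not counts of independent regions.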
